A study of Mus musculus with 7 samples.

Results

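The 30 genes described here encode the enzymes that build cholesterol and fatty acids, the proteins that control them and a carrier of newly available sterol, out of 55357 features in the gene lists. They were taken by symbol: 18 sterol enzymes (Acat2, Hmgcs1, Mvk, Pmvk, Mvd, Idi1, Fdps, Fdft1, Sqle, Lss, Cyp51, Tm7sf2, Msmo1, Nsdhl, Hsd17b7, Ebp, Sc5d and Dhcr7), 5 regulators (Srebf1, Srebf2, Scap, Insig1 and Insig2), the sterol carrier Stard4, and 6 genes of the fatty acid branch (Acly, Acaca, Fasn, Elovl6, Scd1 and Scd2). All 30 symbols were found in every sample. Single-cell RNA of 7 mouse liver samples, labelled HCC (hepatocellular carcinoma) tissue and sharing 1 batch label, was counted in 10x 3′ libraries. In 4 samples the mice had received plasmids for Nras and C-myc together with a plasmid for IL-2/CD25, and in 3 control samples the plasmids for Nras and C-myc alone, so all 7 carry the same oncogene pair. The plasmids were given by hydrodynamic injection into the tail vein, a method that mainly reaches hepatocytes, and the tissue was taken 2 weeks later. The labels give neither strain, sex nor age, nor whether each sample is a separate animal, so the p-values below measure only the spread between these samples.

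Cells make sterol from acetyl-CoA through mevalonate and isoprenoid intermediates to squalene, lanosterol and finally cholesterol, while the fatty acid branch turns the same acetyl-CoA into palmitate, longer chains and monounsaturated fats. When membrane sterol is low, Scap escorts the precursors of the sterol regulatory element-binding proteins, encoded by Srebf1 and Srebf2, to the Golgi, where they are cleaved into transcription factors. The Insig proteins hold that complex back when sterol is plentiful, and Insig1 is itself a target of the pathway. The liver is the main site of cholesterol and fatty acid synthesis in the body, and immune cells use both branches to build membrane.

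The promoters of 4 genes on which the results turn are shown because Hmgcs1, Idi1 and Cyp51 were all called higher in IL-2/CD25 samples in both mature dendritic cells and cDC1, while Fasn belongs to the other branch. Each sequence is the 250 bases before the gene's start, read 5′ to 3′ on the strand of the gene, from RefSeq on build GRCm38.p6. The build of the deposited counts is not given in the sources used here. Capitals mark matches on either strand to TCACNCCAC, a form of the sterol element, and to CCAAT, the box bound by nuclear factor Y, which reads ATTGG on the other strand.
Hmgcs1, chr13:119690101-119690350, plus strand: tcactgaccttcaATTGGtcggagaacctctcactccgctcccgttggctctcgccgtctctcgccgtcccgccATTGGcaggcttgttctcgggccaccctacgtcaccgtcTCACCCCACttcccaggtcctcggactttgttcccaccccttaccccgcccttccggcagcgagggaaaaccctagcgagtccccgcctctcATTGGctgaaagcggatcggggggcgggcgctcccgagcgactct
Idi1, chr13:8885356-8885605, plus strand: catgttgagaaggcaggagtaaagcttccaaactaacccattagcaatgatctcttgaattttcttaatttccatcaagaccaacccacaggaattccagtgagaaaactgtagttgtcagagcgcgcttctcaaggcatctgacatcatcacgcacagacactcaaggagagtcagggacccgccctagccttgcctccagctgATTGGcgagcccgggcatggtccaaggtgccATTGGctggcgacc
Cyp51, chr5:4104698-4104947, minus strand: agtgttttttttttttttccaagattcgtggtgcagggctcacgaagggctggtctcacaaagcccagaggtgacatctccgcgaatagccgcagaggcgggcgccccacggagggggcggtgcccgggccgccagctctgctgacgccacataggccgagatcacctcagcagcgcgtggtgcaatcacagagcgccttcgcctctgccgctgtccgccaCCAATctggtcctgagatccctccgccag
Fasn, chr11:120824548-120824797, minus strand: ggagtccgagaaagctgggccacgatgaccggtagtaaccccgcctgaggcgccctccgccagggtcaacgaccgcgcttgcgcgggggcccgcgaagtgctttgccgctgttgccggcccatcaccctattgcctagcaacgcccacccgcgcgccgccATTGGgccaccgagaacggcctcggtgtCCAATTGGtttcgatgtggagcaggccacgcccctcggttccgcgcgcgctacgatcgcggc

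Hmgcs1 held 1 sterol element, starting 137 bases before the gene's start, and 3 CCAAT boxes. Idi1 held 2 CCAAT boxes, Cyp51 held 1 and Fasn held 3, of which a pair overlaps on opposite strands. At least 1 window was found for 24 of the 30 genes, 32 windows in all, since some genes have several starts. CCAAT was present in 20 of the 32 windows (62.5%), against 33.8% of the windows of all genes. Counted by gene, 19 of the 24 (79.2%) had it in at least 1 window, against 37.5% of all 27025 genes in the table. CACGTG, the E-box, was present in 5 of the 32 windows (15.6%) against 6.02% of all windows, and TCACNCCAC in 1 of the 32 (3.12%) against 1.05%. The sterol element of Hmgcs1 overlapped no CCAAT box, and a match is a description of letters, not a bound site.

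Cells were sorted into types by marker genes, none of which belongs to the 30, and a type name below stands for cells that passed that marker gate. In all, 36860 cells were kept from the IL-2/CD25 samples and 25444 from the controls, with median depths of 3215 to 4477.5 UMIs (unique molecular identifiers, counted molecules) per cell in IL-2/CD25 samples and 6253.5 to 8724 in controls. The gates took 77.2% of the kept cells, and 16.6% were left out because markers of more than 1 type met in the same barcode. Pairs of libraries shared 14 to 37 barcodes, 0.185 to 0.389% of the smaller library. The groups differed in make-up: IL-2/CD25 samples held 10289 NK cells and ILC1 against 309 in controls, 539 monocytes and macrophages against 6688, and 162 cells in the tumour gate against 3233. Free RNA, estimated from markers of other types, made up 3.23 to 10.1% of UMIs in IL-2/CD25 and 5.94 to 15.7% in control samples of the gates that were tested. Levels are given as UMIs of a gene per 1000000 UMIs of the gate in a sample, written CPM, and a share is the same sum over the genes of a branch. Fold changes are log2 values fitted by edgeR on summed UMIs, IL-2/CD25 over control, after TMM scaling, so that they can differ slightly from the ratio of CPM values. The adjusted p-value is over all genes tested in the gate, and a gene was called at 0.05. The 30 genes were listed with earlier results of these data known, so the calls describe them and give no independent support.

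**Figure D1:**
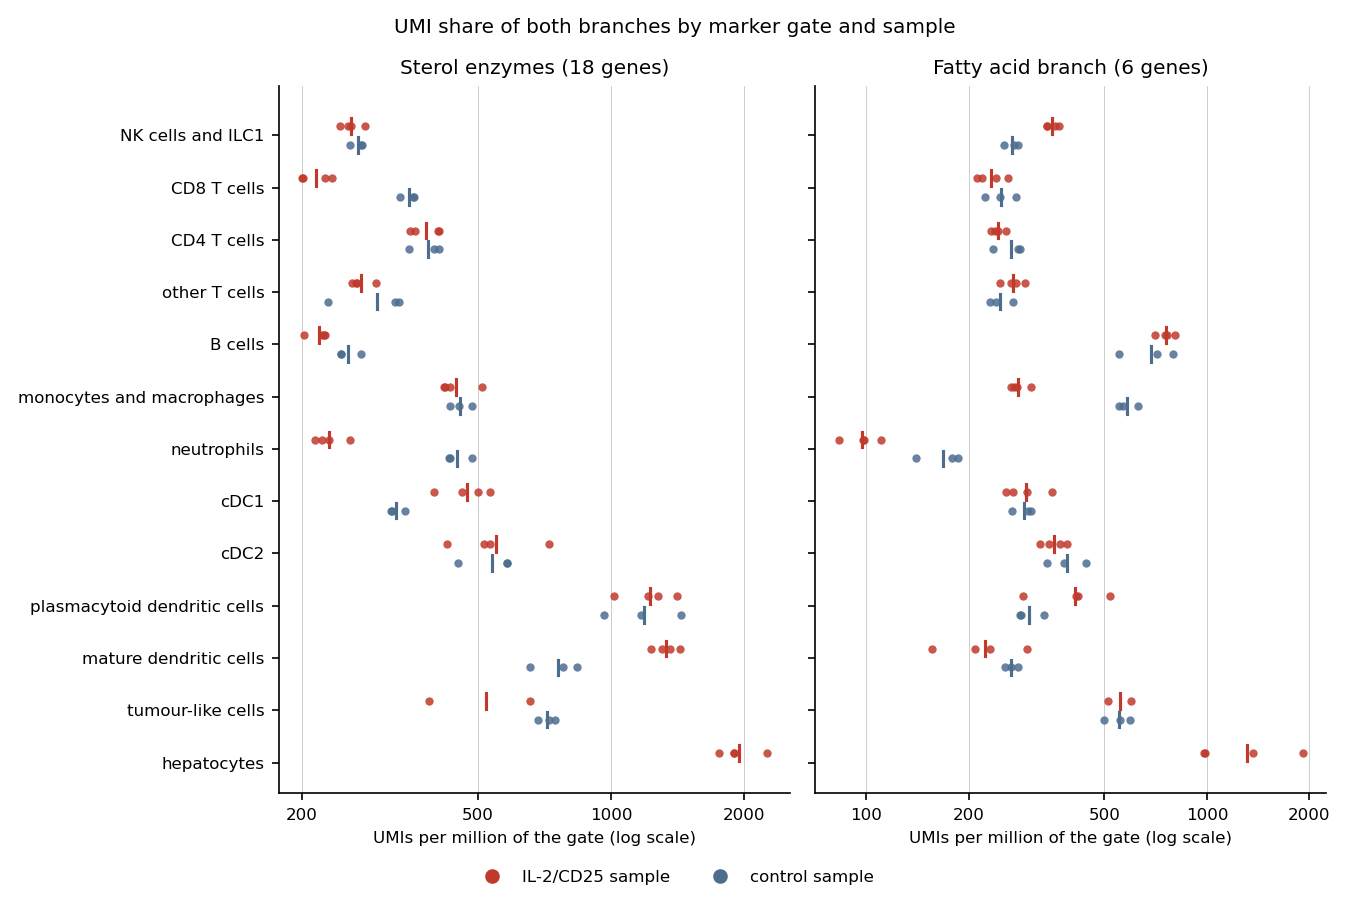
CPM (log axis) summed over the 18 sterol enzymes (left) and the 6 genes of the fatty acid branch (right), by cell type. Each point is a sample, IL-2/CD25 above control, and bars are group means. Sterol shares were highest in hepatocytes of IL-2/CD25 samples, at 1757 to 2249, while only 2 IL-2/CD25 samples held enough cells in the tumour gate, and those cells went against the name by their markers.

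Hepatocytes and 2 kinds of dendritic cell carried the largest share of sterol enzyme RNA. The 18 enzymes took 1757, 1900, 1899 and 2249 CPM in hepatocytes of the 4 IL-2/CD25 samples (1951 ± 210, SD, n = 4), where the controls held only 7 hepatocytes in all and are not compared. In plasmacytoid dendritic cells, the interferon-producing dendritic cells, the share was 1228 ± 164 CPM in IL-2/CD25 samples (n = 4) and 1189 ± 237 in controls (n = 3). The 2 groups overlapped there. Mature dendritic cells, which carry Ccr7 and move to lymph nodes, had 1331 ± 81.9 in IL-2/CD25 samples and 757 ± 92.7 in controls. The tumour gate of the controls had shares within the range of control mature dendritic cells, with values given below. Natural killer cells, T cells, B cells and neutrophils lay far lower, between 216 and 382 CPM on average in IL-2/CD25 samples and between 254.7 and 449.5 in controls.

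Among IL-2/CD25 samples, hepatocytes had the highest mean CPM for 17 of the 30 genes and plasmacytoid dendritic cells for 8. In controls, with hepatocytes too few to count, plasmacytoid dendritic cells led for 15. Some of these leads were small against the spread. Pmvk was at 166.3 ± 71.6 CPM in hepatocytes of IL-2/CD25 samples and 165.8 ± 9.95 in their mature dendritic cells. Elovl6 was at 58.2 ± 21.5 CPM in control plasmacytoid dendritic cells and 57.6 ± 7.69 in the tumour gate of the controls. Hmgcs1, which makes HMG-CoA from acetyl-CoA units, stood at 484, 582, 462 and 601 CPM in hepatocytes of the IL-2/CD25 samples (532 ± 69.3) and next highest in mature dendritic cells of the same samples at 292 ± 23.1. The Hmgcs1 ranges of these 2 types do not overlap. Insig2, a sterol sensor that retains Scap, was at 269, 198, 227 and 295 CPM in those hepatocytes, against 67.7 ± 18.7 in the next gate, endothelial cells (n = 2 samples). Insig2 thus had a level in hepatocytes above every sample of any other gate given here. Scd1, a desaturase that makes monounsaturated fat and is a known liver gene, was at 1308, 1030, 687 and 601 CPM in the same hepatocytes. Scd1 was also high in B cells, at 532 ± 40.7 CPM in IL-2/CD25 samples and 445 ± 97.1 in controls, a difference that was not called (log2 change 0.19 ± 0.13 SE, edgeR adjusted p = 0.34). Its close relative Scd2 had the opposite pattern in hepatocytes, with 17.9, 0, 19.4 and 0 CPM.

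Not every gene was high in these cells. Srebf2, the transcription factor gene of the sterol branch, averaged 182 ± 20.8 CPM in plasmacytoid dendritic cells of IL-2/CD25 samples and 21.1 ± 17.7 in their hepatocytes, its lowest gate. Scap peaked in plasmacytoid dendritic cells in both groups, at 84.8 ± 8.71 CPM in IL-2/CD25 samples and 107 ± 29.3 in controls. Dhcr7, an enzyme of the last steps of cholesterol synthesis, was also highest there, at 49.7 ± 13.5 CPM in IL-2/CD25 samples and 79.2 ± 14 in controls. Elovl6, which lengthens palmitate, was highest in NK cells and ILC1 of IL-2/CD25 samples, at 51.1 ± 3.44 CPM. Hepatocyte values rest on 20 to 144 cells a sample, and 996691 UMIs in all.

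**Figure D2:**
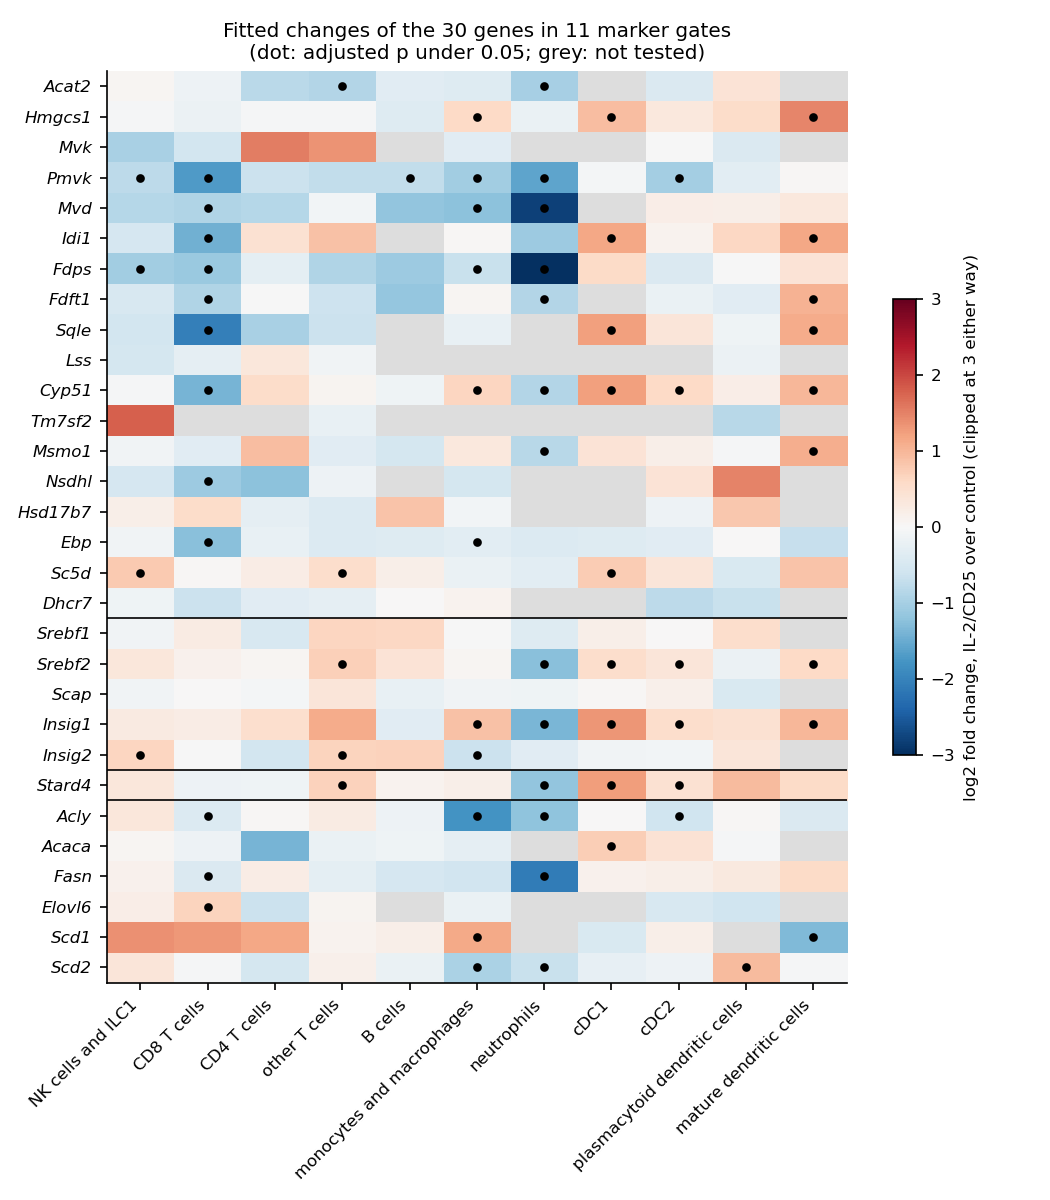
Fitted log2 change, IL-2/CD25 over control, of each of the 30 genes in each gate, with the genes in rows by role and the gates in columns. Colour gives size and direction, clipped at 3 either way, dots mark an adjusted p under 0.05, and grey was not tested. Calls run upward in mature dendritic cells (8 of 9) and cDC1 (9 of 9) and downward in neutrophils (13 of 13) and CD8 T cells (11 of 12).

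The response to IL-2/CD25 had no single direction across the cell types. Over the 10 gates tested by design there were 266 pairs of gene and gate, of which 25 were called higher and 37 lower in IL-2/CD25 samples, and 8 genes were called higher in 1 gate and lower in another. Of all genes, 8.77 to 57.9% were called in these gates. Over the gates together, member pairs were called less often than all genes. In all, 23 of the 30 genes were called in at least 1 of these gates, and Mvk, Lss, Tm7sf2, Hsd17b7, Dhcr7, Srebf1 and Scap in none. Pmvk, the phosphomevalonate kinase, was called lower in 6 of 10 gates and higher in none. Fdps, which makes farnesyl diphosphate, and Acly, which makes cytosolic acetyl-CoA from citrate, were each called lower in 4 gates. Cyp51, Sc5d, Srebf2, Insig1 and Stard4 were each called higher in 3. Of these, Cyp51 was also called lower in 2 gates, Srebf2, Insig1 and Stard4 in 1 each, and Sc5d in none. No count over all genes is given for calls across gates, so these counts only describe the members.

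Among the gates compared, mature dendritic cells had the highest ratio of the sterol share, IL-2/CD25 over control. The share of the 18 enzymes was 1356, 1234, 1428 and 1305 CPM in the IL-2/CD25 samples and 835.7, 654.8 and 780.7 in the controls, 1.76 times as high, with no overlap between the groups. The fatty acid share overlapped between the groups, at 223 ± 58.6 CPM in IL-2/CD25 samples and 266 ± 11.3 in controls, and the ratio of sterol to fatty acid UMIs was 6.29 ± 1.79 in IL-2/CD25 samples and 2.85 ± 0.434 in controls. Of the 18 genes that passed the low-count filter there, 8 were called higher and 1 lower, where 26.8% of all 5337 genes tested were called, 12.7% higher and 14.1% lower. The other 12 were too low to be tested. The median log2 change was 0.589 over the 18 genes and 0.006 over all genes tested. This gate was tested after its shares had been seen, and it rests on 38 to 49 cells a sample in IL-2/CD25 and 39 to 81 in controls.

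Of the early steps tested, Hmgcs1, Idi1, Fdft1 and Sqle were called higher, while Pmvk, Mvd and Fdps were not called and Acat2 and Mvk were too low to be tested. Hmgcs1 stood at 304, 296, 259 and 311 CPM in mature dendritic cells of the IL-2/CD25 samples, against 104, 101 and 105 CPM in the controls (log2 change 1.47 ± 0.17 SE, edgeR adjusted p = 1.8e-05). Every IL-2/CD25 sample lay far above every control. Idi1, the isomerase that supplies the building block of isoprenoids, had 237, 214, 234 and 238 CPM in IL-2/CD25 samples, against 90.9, 108 and 107 CPM in controls (log2 change 1.16 ± 0.17 SE, edgeR adjusted p = 0.00015). The gene list also holds Idi1 pseudogenes, between which and Idi1 its UMIs may have been split. Fdft1, the squalene synthase, had 51.3, 45.7, 33.5 and 64.8 CPM in IL-2/CD25 samples, against 23.5, 19.7 and 25.9 CPM in controls (log2 change 1.04, edgeR adjusted p = 0.014). Sqle, the squalene epoxidase, had 41.4, 60.2, 85.3 and 37.8 CPM in IL-2/CD25 samples, against 27.9, 29.5 and 18.3 CPM in controls (log2 change 1.12, edgeR adjusted p = 0.018). Neither gene overlapped between the groups, but the Sqle call was lost without IL-2/CD25 sample 3 or control sample 3 (edgeR adjusted p up to 0.097). Pmvk, in contrast, was at 166 ± 9.95 CPM in IL-2/CD25 samples and 156 ± 49.8 CPM in controls, a log2 change of 0.04 ± 0.21 SE. Mvd and Fdps had log2 changes of 0.32 and 0.41. Acat2, untested, was at 6.91 ± 4.74 CPM in IL-2/CD25 samples and 14.6 ± 2.22 CPM in controls, with no overlap. It rests on 5, 5, 1 and 1 UMIs in IL-2/CD25 samples and 10, 5 and 11 in controls. Hsd17b7, a sterol enzyme also untested, went the other way without overlap, at 26.4 ± 22 CPM in IL-2/CD25 samples and 6.99 ± 3.88 CPM in controls.

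Of the late steps that turn lanosterol into cholesterol, Cyp51 and Msmo1 were called higher. Cyp51, the lanosterol demethylase, had 225, 135, 177 and 132 CPM in mature dendritic cells of IL-2/CD25 samples, against 90.9, 73.8 and 80.7 CPM in controls (log2 change 1.01 ± 0.22 SE, edgeR adjusted p = 0.0035). Msmo1, the methylsterol oxidase that acts after it, had 74.9, 81.8, 134 and 119 CPM in IL-2/CD25 samples, against 52.8, 34.5 and 47.2 CPM in controls (log2 change 1.10 ± 0.25 SE, edgeR adjusted p = 0.0041). Both genes were higher in each IL-2/CD25 sample than in any control. Sc5d, a sterol desaturase, was at 48.5 ± 7.62 CPM in IL-2/CD25 samples and 24.2 ± 12.4 CPM in controls and missed the call (log2 change 0.86, edgeR adjusted p = 0.061). Ebp, a sterol isomerase, went the other way without being called, at 24.6 ± 6.8 CPM in IL-2/CD25 samples and 39.8 ± 8.27 CPM in controls.

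Both regulators that could be tested in mature dendritic cells were called higher. Srebf2 had 158, 142, 167 and 176 CPM in IL-2/CD25 samples, against 96.8, 108 and 107 CPM in controls (log2 change 0.60 ± 0.17 SE, edgeR adjusted p = 0.016). Insig1 had 39.4, 65, 88.3 and 59.4 CPM in IL-2/CD25 samples, against 23.5, 22.2 and 42.6 CPM in controls, with 1 control above the lowest IL-2/CD25 sample (log2 change 1.00 ± 0.32 SE, edgeR adjusted p = 0.03). The Srebf2 call was lost without control sample 1 (edgeR adjusted p = 0.079), and the Insig1 call without IL-2/CD25 sample 2 or 3 or control sample 1 or 2. In the fatty acid branch Scd1 was called lower, at 13.8, 31.3, 9.14 and 40.5 CPM in IL-2/CD25 samples, against 46.9, 111 and 28.9 CPM in controls (log2 change -1.32, edgeR adjusted p = 0.046), a call lost without any of 5 of the 7 samples. Hmgcs1, Idi1, Cyp51 and Msmo1 kept their calls in every alternative that tested them. Other cell types moved with the group in this gate: the summed level of 7 neutrophil markers was 82.2 to 530 CPM in IL-2/CD25 samples, with Ly6g at 0, and 858 to 2752 in controls, and 5 NK markers summed to 45.3 to 231 CPM in IL-2/CD25 samples and 7.38 to 10.7 in controls. Ccr7 itself averaged 2478 CPM in IL-2/CD25 samples and 1468 in controls. Proliferation markers summed to 30 ± 12.6 CPM in IL-2/CD25 samples and 117 ± 80.5 CPM in controls, and without cells holding such UMIs 5 calls were left, Hmgcs1, Idi1, Cyp51, Msmo1 and Insig1. The part of these in the sterol values was not tested.

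**Figure D3:**
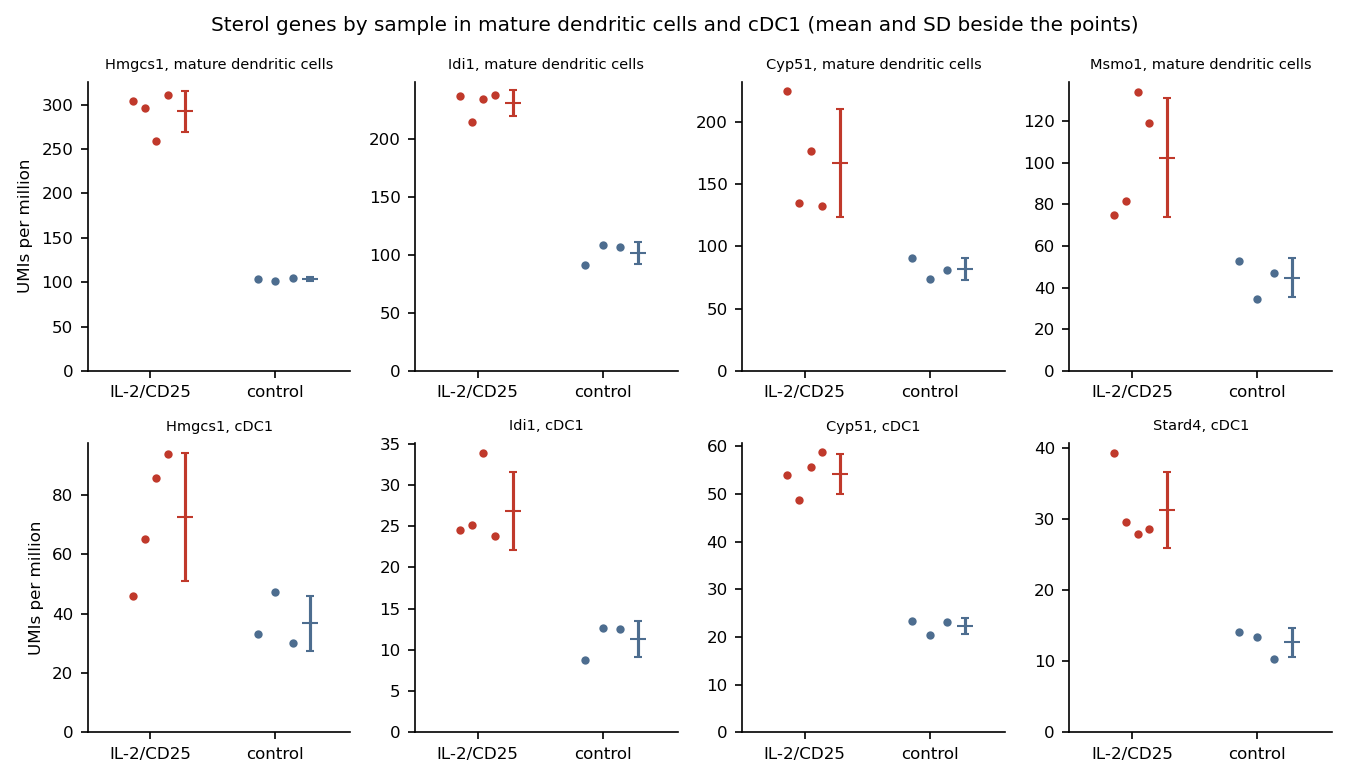
CPM of Hmgcs1, Idi1, Cyp51 and Msmo1 in mature dendritic cells (top) and of Hmgcs1, Idi1, Cyp51 and Stard4 in cDC1 (bottom), by sample, IL-2/CD25 left of control, with mean and SD beside the points. The groups are apart in each panel except Hmgcs1 in cDC1, where the lowest IL-2/CD25 sample, at 45.8, lies just under the highest control, at 47.3.

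The sterol share was also higher in cDC1, the conventional dendritic cells that take up dead cells and prime CD8 T cells. Their sterol share was 461.1, 397.6, 501.3 and 532.3 CPM in IL-2/CD25 samples and 319, 320.2 and 343.2 in controls, 1.44 times as high without overlap, while the fatty acid share was 294 ± 41.2 in IL-2/CD25 samples and 290 ± 19.2 in controls. Of 20 genes tested in cDC1, 9 were called higher and none lower, against 17.8% of all genes called higher and 18.1% lower. The 10 genes left were not tested, 9 of them sterol enzymes. The median log2 change was 0.472 over the 20 and 0.018 over all genes.

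Cyp51 had 54, 48.8, 55.7 and 58.8 CPM in cDC1 of IL-2/CD25 samples, against 23.3, 20.4 and 23.1 CPM in controls (log2 change 1.24 ± 0.17 SE, edgeR adjusted p = 5.8e-05). Stard4, which carries sterol between membranes, had 39.2, 29.6, 27.8 and 28.6 CPM in IL-2/CD25 samples, against 14.2, 13.5 and 10.3 CPM in controls (log2 change 1.26 ± 0.23 SE, edgeR adjusted p = 0.00047). Insig1 had 26.2, 28.1, 29.8 and 44.5 CPM in IL-2/CD25 samples, against 8.19, 15.1 and 13.4 CPM in controls (log2 change 1.33 ± 0.27 SE, edgeR adjusted p = 0.0014). For these 3 genes no control reached the lowest IL-2/CD25 sample. Idi1 had 24.5, 25.1, 33.8 and 23.8 CPM in IL-2/CD25 samples, against 8.82, 12.7 and 12.5 CPM in controls (log2 change 1.17 ± 0.25 SE, edgeR adjusted p = 0.002). Hmgcs1 was called with overlapping groups, at 45.8, 65, 85.5 and 93.8 CPM in IL-2/CD25 samples and 33.1, 47.3 and 30 CPM in controls (log2 change 0.92 ± 0.22 SE, edgeR adjusted p = 0.004). Srebf2, at 152, 142, 195 and 200 CPM in IL-2/CD25 samples and 121, 120 and 104 CPM in controls, was higher in all 4 (log2 change 0.53 ± 0.14 SE, edgeR adjusted p = 0.0072). The other calls were Sqle, with a log2 change of 1.24, Sc5d, with 0.77, and Acaca, the acetyl-CoA carboxylase of the fatty acid branch, with 0.74. Sc5d lost its call without any of 5 of the samples and Acaca without any of 4.

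Dividing cells and other markers differed in cDC1 as well. The 8 proliferation markers summed to 594 ± 276 CPM in IL-2/CD25 samples and 891 ± 253 CPM in controls. With all cells holding such UMIs left out, 17 to 29 cells a sample remained in IL-2/CD25 and 52 to 74 in controls. Samples left with under 20 cells were not part of that test, in which 2 calls remained, Hmgcs1 and Insig1. In that smaller set Cyp51 had a log2 change of 0.949 (edgeR adjusted p = 0.052). The 8 monocyte and macrophage markers summed to 699.8 to 1063 CPM in cDC1 of IL-2/CD25 samples, 1 of them at 0, and to 220.2 to 259 CPM in controls, while the monocytes and macrophages of the same samples had 5905 to 7040 CPM in IL-2/CD25 and 2806 to 3064 in controls. Whether these had a part in the sterol values was not tested.

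In cDC2, the conventional dendritic cells that mainly prime CD4 T cells, the sterol shares of the groups overlapped, 550 ± 125 CPM in IL-2/CD25 samples and 539 ± 75.9 in controls, and 4 of 28 genes were called higher and 2 lower, where 42.2% of all genes were called, 20.4% higher and 21.8% lower. Cyp51 had 60, 82, 68.7 and 74.8 CPM in IL-2/CD25 samples, against 53.5, 35.3 and 42.7 CPM in controls (log2 change 0.59 ± 0.16 SE, edgeR adjusted p = 0.007). Srebf2, Insig1 and Stard4 were also called higher, by 0.35 to 0.52 on the log2 scale, and each lost its call without any of 4 or 5 samples. Pmvk was called lower, at 44.7, 95.4, 41.2 and 45.3 CPM in IL-2/CD25 samples and 113, 91.8 and 117 CPM in controls (log2 change -1.03 ± 0.21 SE, edgeR adjusted p = 0.00078), with IL-2/CD25 sample 2 among the controls. Acly was called lower too, at 90.4, 93, 90.5 and 112 CPM in IL-2/CD25 samples and 155, 141 and 114 CPM in controls (log2 change -0.59 ± 0.13 SE, edgeR adjusted p = 0.0015). The count of calls fell to 3 without IL-2/CD25 sample 2 or 3.

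Plasmacytoid dendritic cells, already high in sterol enzyme RNA, gave 1 call among 29 genes, where 8.77% of all genes were called, 3.41% higher and 5.36% lower. Scd2, the desaturase that was low in hepatocytes here, had 142, 215, 200 and 269 CPM in IL-2/CD25 samples, against 129, 84 and 80.6 CPM in controls (log2 change 0.96 ± 0.26 SE, edgeR adjusted p = 0.022). The groups did not overlap, but the call was lost without any 1 of the 3 controls (edgeR adjusted p 0.068 to 0.163). The controls held 98 of these cells in all, and simulated 2-fold changes were found in 40% of genes in this gate.

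**Figure D4:**
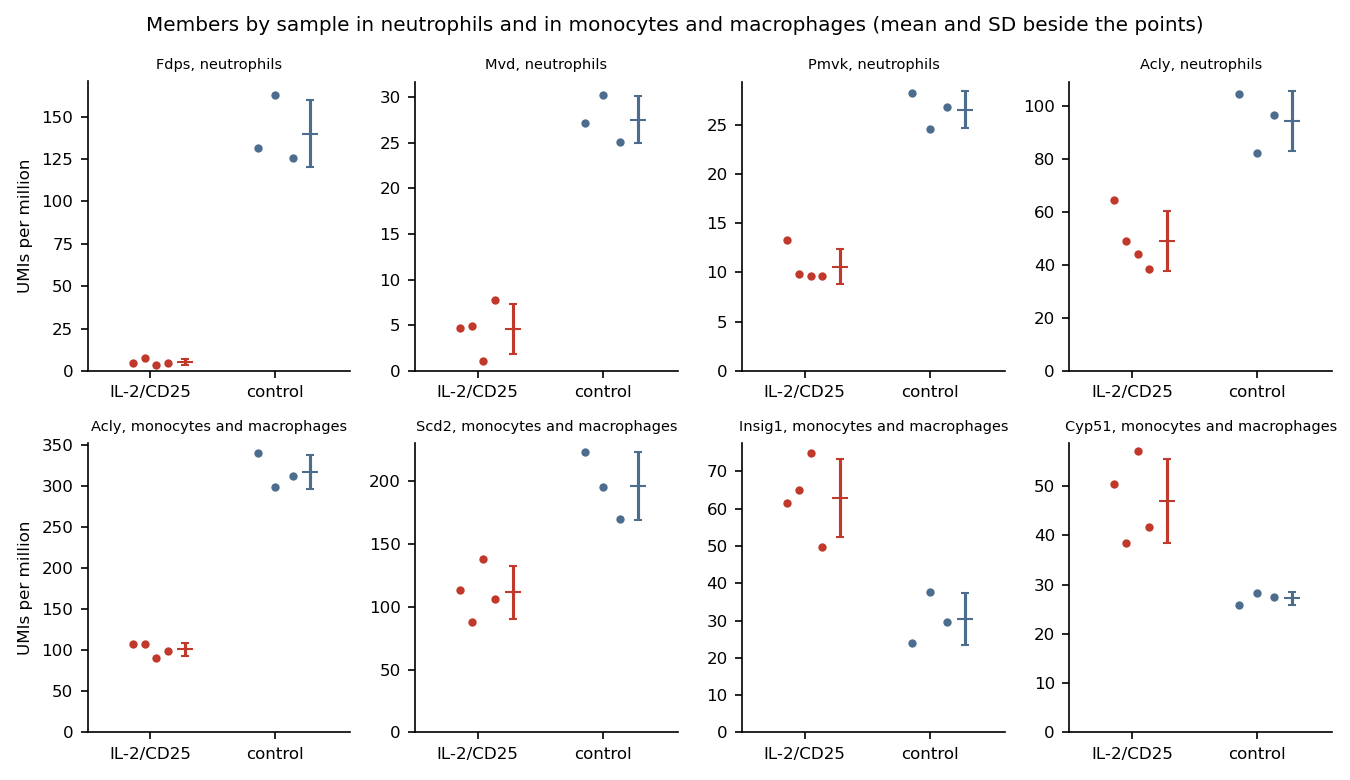
CPM of selected genes in neutrophils and in monocytes and macrophages, by sample, IL-2/CD25 left of control, with mean and SD beside the points. Fdps and Mvd in neutrophils and Acly in monocytes and macrophages are lower in every IL-2/CD25 sample, while Insig1 and Cyp51 in monocytes and macrophages are higher.

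Neutrophils had lower shares of both branches in IL-2/CD25 samples. Their sterol share was 230.5, 256.6, 221.9 and 214.2 CPM in IL-2/CD25 samples and 432.6, 486.3 and 429.7 in controls, 0.513 times the control level. The fatty acid share was 97.71, 110.7, 98.6 and 82.98 in IL-2/CD25 samples and 186.2, 140.1 and 178.6 in controls, and neither share overlapped. Of 20 genes tested, 13 were called lower and none higher, where 54.3% of all genes were called, 28.4% lower and 25.9% higher, with a median log2 change of -0.948 over the 20 and -0.024 over all genes.

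Fdps accounted for most of the sterol difference. It had 4.74, 7.84, 3.22 and 4.82 CPM in neutrophils of IL-2/CD25 samples, against 131, 163 and 126 CPM in controls (log2 change -5.00 ± 0.21 SE, edgeR adjusted p = 1.2e-08). Control neutrophils had the highest Fdps level of any gate in these samples, above the 51.7, 47.3 and 49.2 CPM of tumour-like cells in the same libraries. Mvd, the decarboxylase that precedes Idi1 in the pathway, had 4.74, 4.9, 1.07 and 7.72 CPM in IL-2/CD25 samples, against 27.1, 30.2 and 25.1 CPM in controls (log2 change -2.80 ± 0.30 SE, edgeR adjusted p = 7.9e-06). Pmvk had 13.3, 9.8, 9.65 and 9.65 CPM in IL-2/CD25 samples, against 28.3, 24.5 and 26.8 CPM in controls (log2 change -1.58 ± 0.19 SE, edgeR adjusted p = 2.3e-05). All 3 genes act in the isoprenoid part of the pathway and were lower in every IL-2/CD25 sample than in any control. Idi1, whose step lies between those of Mvd and Fdps, was not called and overlapped, at 2.85, 13.7, 6.43 and 1.93 CPM in IL-2/CD25 samples and 8.41, 13 and 11.9 CPM in controls (log2 change -1.09, edgeR adjusted p = 0.052). Other sterol enzymes changed less or were not called. Msmo1 had 22.8, 21.6, 31.1 and 20.3 CPM in IL-2/CD25 samples and 32.7, 32.9 and 40.5 CPM in controls (log2 change -0.83 ± 0.19 SE, edgeR adjusted p = 0.0023). Sc5d was at 82.8 ± 10.3 CPM in IL-2/CD25 samples and 86.8 ± 16.7 CPM in controls, and Hmgcs1 at 25.2 ± 6.4 CPM in IL-2/CD25 samples and 24 ± 3.2 CPM in controls, and neither was called.

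Of the 5 regulators, Srebf2 and Insig1 were called lower in neutrophils, and Srebf1, Scap and Insig2 were not called. Of the fatty acid branch Acly, Fasn and Scd2 were called lower, and Acaca, Elovl6 and Scd1 were too low to be tested. Scd1 had 1.9, 9.8, 23.6 and 1.93 CPM in IL-2/CD25 samples and 3.81, 1.78 and 3.46 CPM in controls. Srebf2 had 22.8, 39.2, 26.8 and 27 CPM in IL-2/CD25 samples, against 62.4, 55.3 and 55.2 CPM in controls (log2 change -1.25 ± 0.17 SE, edgeR adjusted p = 5e-05). Acly had 64.5, 49, 43.9 and 38.6 CPM in IL-2/CD25 samples, against 105, 82.1 and 96.6 CPM in controls (log2 change -1.20 ± 0.16 SE, edgeR adjusted p = 4.3e-05). Fasn, the fatty acid synthase, had 2.85, 7.84, 9.65 and 3.86 CPM in IL-2/CD25 samples, against 20.8, 11.4 and 32 CPM in controls (log2 change -2.10 ± 0.45 SE, edgeR adjusted p = 0.0018). Srebf2, Acly and Fasn were apart between the groups. Insig1, Stard4, Acat2, Fdft1, Cyp51 and Scd2 were also called lower, by log2 changes of -1.36, -1.17, -1.01, -0.89, -0.88 and -0.67. The calls of Fdft1, Cyp51 and Scd2 were lost without any of 4, 2 and 3 of the samples (edgeR adjusted p up to 0.098), and 9 of the 13 calls stayed in every alternative that tested them. With free RNA subtracted 7 calls were left, and a call that an alternative did not test could still count among those that stayed. Free RNA made up 3.84 to 7.76% of neutrophil UMIs in IL-2/CD25 samples and 10.2 to 13.7% in controls. Fasn was at 196, 173 and 224 CPM in tumour-like cells of the controls, and the part of such RNA in its neutrophil values was not tested. Neutrophil markers themselves differed, summing to 101085 to 135473 CPM in IL-2/CD25 samples and 192124 to 203298 in controls, as did markers of tumour-like cells, at 3.86 to 15.2 CPM in IL-2/CD25 samples and 177 to 436 in controls. Their part was not tested.

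In monocytes and macrophages the shares of the 2 branches parted. The sterol share was 447 ± 44 CPM in IL-2/CD25 samples and 457 ± 26.9 in controls, with overlap, whereas the fatty acid share was 277.9, 271, 303.7 and 266.2 in IL-2/CD25 samples and 629.9, 550.5 and 569.1 in controls, 0.48 times as high. The ratio of sterol to fatty acid UMIs was 1.59 ± 0.0627 in IL-2/CD25 samples and 0.788 ± 0.0985 in controls. Of 28 genes tested, 4 were called higher and 7 lower, where 54.3% of all genes were called, 27.4% higher and 26.9% lower, so the count of members called is below the rate of the gate as a whole.

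Of the 6 genes of the fatty acid branch, 2 were called lower and 1 higher in these cells, and 3 were not called. Acly, whose acetyl-CoA serves both branches, carried most of the difference in the fatty acid share. It had 108, 108, 90.5 and 99.2 CPM in IL-2/CD25 samples, against 340, 299 and 312 CPM in controls (log2 change -1.79 ± 0.10 SE, edgeR adjusted p = 1.4e-07). Scd2 had 114, 87.7, 138 and 106 CPM in IL-2/CD25 samples, against 224, 195 and 170 CPM in controls (log2 change -0.96 ± 0.14 SE, edgeR adjusted p = 0.00012). Both groups were apart for both genes, while Fasn, at 24.4 ± 1.52 CPM in IL-2/CD25 samples and 33.1 ± 12.3 CPM in controls, was not called (log2 change -0.57, edgeR adjusted p = 0.088). Scd1 was called higher, at 6.84, 23.9, 14.3 and 4.24 CPM in IL-2/CD25 samples, against 3.99, 3.78 and 5.62 CPM in controls (log2 change 1.13, edgeR adjusted p = 0.046), but the groups overlapped and the call was lost without any of 5 samples. IL-2/CD25 samples 2 and 3 were the 2 highest for Scd1 in CD8 T cells and NK cells as well. In hepatocytes the CPM of Scd1 was highest in sample 1, while its summed UMIs were 73, 239, 424 and 55 in order of sample. Whether hepatocyte RNA had a part in the Scd1 values of other gates was not tested.

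Sterol genes moved both ways in monocytes and macrophages. Insig1 had 61.6, 65.1, 75 and 49.6 CPM in IL-2/CD25 samples, against 24.1, 37.8 and 29.6 CPM in controls (log2 change 0.87 ± 0.18 SE, edgeR adjusted p = 0.0018). Cyp51 had 50.5, 38.5, 57.2 and 41.7 CPM in IL-2/CD25 samples, against 25.8, 28.4 and 27.4 CPM in controls (log2 change 0.64 ± 0.13 SE, edgeR adjusted p = 0.0018). Hmgcs1 had 79.5, 63.8, 72.7 and 52.6 CPM in IL-2/CD25 samples, against 34.8, 46.5 and 37.4 CPM in controls (log2 change 0.60 ± 0.16 SE, edgeR adjusted p = 0.0073), a call lost without IL-2/CD25 sample 1 (edgeR adjusted p = 0.051). These 3 genes were higher in each IL-2/CD25 sample than in any control. Mvd and Pmvk were called lower in the same cells. Mvd had 12.8, 26.6, 19.1 and 35.1 CPM in IL-2/CD25 samples, against 52.2, 50.1 and 52.1 CPM in controls (log2 change -1.23 ± 0.22 SE, edgeR adjusted p = 0.00056). Pmvk had 39.3, 31.9, 28.6 and 22.4 CPM in IL-2/CD25 samples, against 56.2, 53.3 and 59.3 CPM in controls (log2 change -1.05 ± 0.16 SE, edgeR adjusted p = 0.00017). Insig2, Fdps and Ebp were called lower by log2 changes of -0.64, -0.67 and -0.32, and the last 2 lost the call without some samples. Pmvk, Mvd, Insig1, Acly and Scd2 kept theirs in every alternative that tested them, and the count of calls was 7 without IL-2/CD25 sample 1 and 5 with a stricter marker gate. Proliferation markers summed to 382 ± 120 CPM in IL-2/CD25 samples and 364 ± 117 CPM in controls, with overlap. Monocyte and macrophage markers summed to 5905 to 7040 CPM in IL-2/CD25 samples and 2806 to 3064 CPM in controls, and the part of this in the member values was not tested.

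CD8 T cells, the cytotoxic T cells, had a lower sterol share, at 200.5, 201.4, 234.1 and 226.2 CPM in IL-2/CD25 samples and 359.3, 333.9 and 356.8 in controls, 0.616 times as high and with no overlap. The fatty acid share was 233 ± 21.9 in IL-2/CD25 samples and 249 ± 25.9 in controls. Of 29 genes, 11 were called lower and 1 higher, where 57.9% of all genes were called, 29.7% lower and 28.2% higher, and 9 of the 11 were sterol enzymes. The 12 calls are thus a smaller share of the members than of all genes. Ebp had 36.5, 27.5, 41.7 and 41 CPM in IL-2/CD25 samples, against 86.9, 66 and 86.4 CPM in controls (log2 change -1.24 ± 0.16 SE, edgeR adjusted p = 9.7e-06). Pmvk had 8.11, 12, 9.82 and 9.47 CPM in IL-2/CD25 samples, against 32, 26 and 29.8 CPM in controls (log2 change -1.70 ± 0.20 SE, edgeR adjusted p = 5e-06). The 2 genes were lower in all 4 IL-2/CD25 samples than in any control. Cyp51, Sqle and Idi1 were lower by log2 changes of -1.40, -2.05 and -1.45, and Fdps, Nsdhl, Mvd and Fdft1 by -1.10, -1.08, -0.90 and -0.90. Hmgcs1, in contrast, was at 31 ± 2.03 CPM in IL-2/CD25 samples and 33.2 ± 1.02 CPM in controls. In the fatty acid branch Fasn and Acly were lower by log2 changes of -0.44 and -0.41, and Elovl6 was higher by 0.66, but each of these 3 lost its call without some samples, as did Fdps without control sample 1 and Fdft1 without control sample 3.

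Dividing cells moved with the group in CD8 T cells. The 8 proliferation markers summed to 117 ± 42.5 CPM in IL-2/CD25 samples and 2001 ± 772 CPM in controls. With cells holding such UMIs left out, 19 to 48 CD8 T cells a sample remained in controls and 0 of the 12 calls were left by edgeR. A control sample left with under 20 cells was not part of that test. In that set Pmvk had a log2 change of 0.10 and Idi1 of 0.148, both turned in sign. The ratio of sterol shares was -0.358 on the log2 scale there and -0.699 with all cells.

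Other lymphocytes showed few changes. In NK cells and ILC1 2 of 30 genes were called higher and 2 lower, where 34.9% of all genes were called, 17.5% higher and 17.4% lower. Sc5d had 36.7, 39.3, 35.4 and 45.5 CPM in IL-2/CD25 samples and 35.5, 19.7 and 7.9 CPM in controls (log2 change 0.78, edgeR adjusted p = 0.033), and Insig2 was higher by 0.64, while Pmvk and Fdps were lower by log2 changes of -0.80 and -1.05. All 4 calls were lost without some samples, and the count was 2 without control sample 1 or 2. The fatty acid share of these cells was 339.8, 339, 357.3 and 368.5 CPM in IL-2/CD25 samples and 279.3, 271.8 and 252.9 in controls, 1.31 times as high, though none of its 6 genes was called. Their proliferation markers summed to 83.8 ± 15.5 CPM in IL-2/CD25 samples and 784 ± 508 CPM in controls, and no call was left without cells holding such UMIs.

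Other T cells are those that entered neither the CD4 nor the CD8 gate, and they can still hold Cd4 or Cd8 UMIs. In them 4 of 30 genes were called higher and 1 lower, where 26.1% of all genes were called, 12.5% higher and 13.6% lower. Srebf2 had 49.7, 53.9, 64.4 and 61 CPM in IL-2/CD25 samples, against 27, 37 and 33.7 CPM in controls (log2 change 0.72 ± 0.19 SE, edgeR adjusted p = 0.013). Stard4 had 46.8, 48.5, 46.4 and 41.7 CPM in IL-2/CD25 samples, against 38.5, 22.5 and 17.9 CPM in controls (log2 change 0.70 ± 0.21 SE, edgeR adjusted p = 0.024). Insig2 and Sc5d were higher by log2 changes of 0.67 and 0.54 and Acat2, which joins acetyl-CoA units, was lower by -0.89. Each of these calls was lost without at least 1 sample, and the count was 2 without control sample 2 or IL-2/CD25 sample 1 or 2, and 3 without control sample 3 or IL-2/CD25 sample 3. In CD4 T cells none of 29 genes was called by edgeR, where 4.49% of all genes were called higher and 6.58% lower. There 3 had an unadjusted p under 0.05, and DESeq2 called 1. In B cells Pmvk alone of 23 genes was called, at 25, 22.8, 22.2 and 22.5 CPM in IL-2/CD25 samples and 41.9, 27.8 and 33 CPM in controls (log2 change -0.73 ± 0.25 SE, edgeR adjusted p = 0.045), against 11.8% of all genes called lower and 8.14% higher. It lost the call without any of 4 samples, and the B cell count was 0 without control sample 1 or 3 or IL-2/CD25 sample 2 or 3 and 2 without control sample 2.

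Tumour-like cells of the controls, gated on keratins, Epcam and Cdkn2a, were set against monocytes and macrophages of the same 3 libraries. Cdkn2a averaged 516 ± 39.2 CPM and Krt19 305 CPM in these cells, with Epcam at 8.33 CPM. In IL-2/CD25 samples the gate held cells with Cdkn2a at 17.1, Krt19 at 1763 and Epcam at 508 CPM in the 2 samples with enough of them, which goes against the name, and they were not compared. In controls 19 of 30 genes were called higher and 6 lower in tumour-like cells, where 80.3% of all genes were called, 41.1% higher and 39.2% lower, so the count of calls is close to that of any genes and the sizes below are given as a description. The sterol share was 684.6, 746.5 and 723.5 CPM in tumour-like cells and 457 ± 26.9 in monocytes and macrophages.

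**Figure D5:**
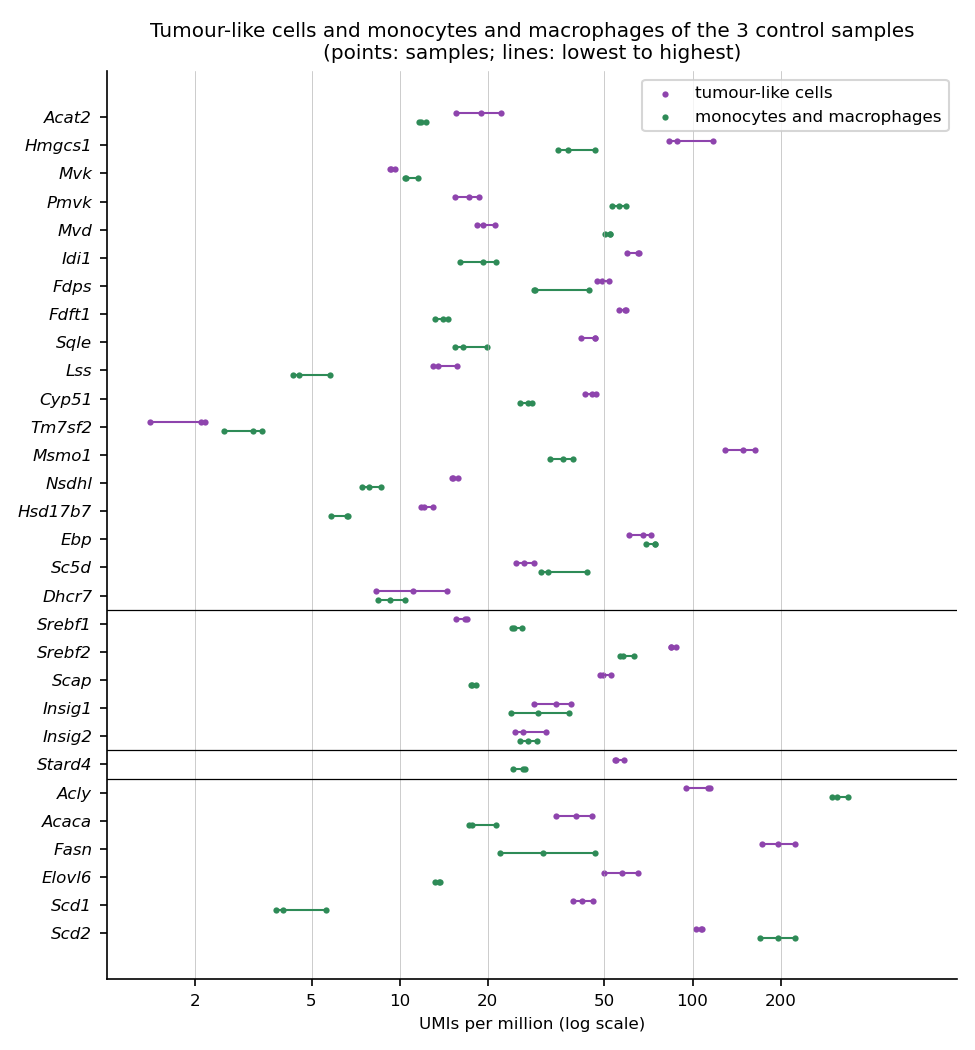
CPM (log axis) of the 30 genes in tumour-like cells (above) and monocytes and macrophages (below) of the 3 control samples, with genes by role. Points are samples and lines run from lowest to highest. Fasn, Scd1, Elovl6, Fdft1 and Msmo1 lie far to the right in tumour-like cells, and Acly, Pmvk and Mvd to the left.

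The fatty acid genes split most clearly. Fasn had 196, 173 and 224 CPM in tumour-like cells, against 30.9, 22.1 and 46.4 CPM in monocytes and macrophages (log2 change 2.73 ± 0.14 SE, edgeR adjusted p = 2.5e-05). Scd1 had 39.2, 45.6 and 41.8 CPM in tumour-like cells, against 3.99, 3.78 and 5.62 CPM in monocytes and macrophages (log2 change 3.36 ± 0.15 SE, edgeR adjusted p = 1.5e-05), and Elovl6 was higher by a log2 change of 2.18. All samples of the 2 types were apart for these genes. Acly, which feeds the same branch, had 115, 95.1 and 113 CPM in tumour-like cells and 340, 299 and 312 CPM in monocytes and macrophages (log2 change -1.46 ± 0.06 SE, edgeR adjusted p = 1.4e-05). Among sterol enzymes Msmo1 had 129, 164 and 148 CPM in tumour-like cells, against 32.5, 39 and 36 CPM in monocytes and macrophages (log2 change 2.13 ± 0.06 SE, edgeR adjusted p = 1e-05). Fdft1, Idi1, Lss, Sqle and Hmgcs1 were higher by log2 changes of 2.16, 1.86, 1.64, 1.49 and 1.38. Pmvk and Mvd were lower by log2 changes of -1.62 and -1.29. Scap had 48.4, 49.5 and 52.8 CPM in tumour-like cells and 17.6, 17.6 and 18.2 CPM in monocytes and macrophages (log2 change 1.6 ± 0.06 SE, edgeR adjusted p = 1.1e-05), while Insig1 changed by 0.26, a call lost without control sample 1. The 2 types differ in proliferation markers too, at 672 ± 140 CPM in tumour-like cells and 364 ± 117 CPM in monocytes and macrophages.

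Genes around the 2 branches were counted in lists picked by function. Of 13 genes of fatty acid oxidation, the burning of fat in mitochondria, none was called higher in IL-2/CD25 samples in any of the 11 gates, and 2 to 8 of the 9 to 13 tested were called lower in each. In CD8 T cells 8 of 13 were lower, in monocytes and macrophages 7 of 13 and in neutrophils 8 of 11, where 29.7%, 26.9% and 28.4% of all genes were called lower. Etfb, which passes electrons from that pathway, was at 37.5 ± 2.49 CPM in CD8 T cells of IL-2/CD25 samples and 196 ± 8.94 CPM in controls (log2 change -2.45 ± 0.10 SE), and at 50.6 ± 7.32 CPM in monocytes and macrophages of IL-2/CD25 samples and 205 ± 9 CPM in controls. The median log2 change of the list was -0.688 in CD8 T cells and -0.40 in monocytes and macrophages, against 0.028 and 0.005 over all genes. All 8 proliferation markers were called lower in CD8 T cells of IL-2/CD25 samples as well. The lists here and below are given for all cells, and the part of dividing cells in them was not tested.

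Of the genes of sterol efflux and storage, 6 of 10 were called higher in CD8 T cells and none lower, where 28.2% of all genes were called higher. In monocytes and macrophages 7 of 11 were called higher and 1 lower, where 27.4% of all genes were called higher. In mature dendritic cells 3 of 8 were called higher and none lower (12.7% of all genes higher), in cDC1 4 of 9 higher and 2 lower (17.8% and 18.1%), and in neutrophils 4 of 10 higher and 5 lower (25.9% and 28.4%). Nr1h3, a receptor for oxidised sterols, was at 94.6 ± 21.9 CPM in monocytes and macrophages of IL-2/CD25 samples and 6.38 ± 2.55 CPM in controls (log2 change 3.73 ± 0.27 SE). Abca1, which exports cholesterol, was at 128 ± 37.3 CPM in those of IL-2/CD25 samples and 28.7 ± 7.24 CPM in controls. Mylip, a ubiquitin ligase induced by sterol receptors, was at 162 ± 10.7 CPM in CD8 T cells of IL-2/CD25 samples and 20.2 ± 5.08 CPM in controls (log2 change 3.03 ± 0.16 SE), and at 52.4 ± 13.3 CPM in mature dendritic cells of IL-2/CD25 samples and 9.9 ± 2.98 CPM in controls. Among 14 further genes of lipid synthesis, 3 of 8 tested were called higher and 2 lower in CD8 T cells, 3 of 9 higher and 2 lower in monocytes and macrophages, and 1 of 7 higher and 3 lower in neutrophils, shares near those of all genes in CD8 T cells (28.2% higher, 29.7% lower) and in monocytes and macrophages (27.4% and 26.9%). Acss2, which makes acetyl-CoA from acetate, was at 16.6 ± 3.24 CPM in monocytes and macrophages of IL-2/CD25 samples and 3.85 ± 0.43 CPM in controls, and at 26.2 ± 5.94 CPM in neutrophils of IL-2/CD25 samples and 6.6 ± 1.84 CPM in controls. Acly, the other source of acetyl-CoA, was lower in both cell types.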

How the data were processed

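RNA of single cells was sequenced from 7 mouse liver samples, 4 IL-2/CD25 and 3 control. The deposited files hold raw UMI counts per gene and barcode; Cell Ranger 7.0.0 and bcl2fastq 5.0.1 are named in the submitters' processing notes, and which genome build was used is not stated there. Barcodes with at least 500 UMIs, 200 genes and less than 20% mitochondrial UMIs were kept. A cell entered a gate when it held at least 2 distinct markers of that type and no second type reached 0.5 of its level. For types with at most 2 markers 1 was enough, as in cDC1 (Xcr1 or Clec9a) and plasma cells (Jchain). T and NK cells passed this rule as 1 class and were then split by T, NK, Cd4 and Cd8 marker UMIs. No doublet caller was run. Cells in which a second type reached 0.5 of the level of the first were left out, and cells with lower levels of other markers were kept. UMIs were summed per sample and gate where at least 20 cells were present, and tested with edgeR 4.0.16 (quasi-likelihood, TMM, low-count filter, Benjamini-Hochberg adjustment over all genes of the gate, threshold 0.05) in R 4.3.3. Tumour-like cells and monocytes and macrophages of the controls were compared with the sample as a block. DESeq2 1.42.0, other filters, gates and scalings, subtraction of free RNA, thinning to equal totals, cells without proliferation marker UMIs and each sample left out were tried as alternatives. On simulated counts edgeR found 28 to 80% of 2-fold and 71 to 96% of 4-fold changes, depending on the gate. Total UMIs per sample were 37562795 to 47793898 in IL-2/CD25 and 76298967 to 181432842 in controls. The members, the other lists and the tests were chosen with earlier results of these data known. Named in each gate were called members with a mean of at least 20 CPM, by size of change, up to 10 a direction, and for each member the gate with its highest mean; members named outside this rule were chosen after their values were seen. Replicate numbers occur in both groups, but nothing in the labels pairs the samples.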

Additional observations from a re-analysis of the deposited data

Results flagged for a closer look

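In 7 of 71 groups of samples checked, 1 IL-2/CD25 sample lay apart from the other 3 of its group, where chance gives about 1 in 20. These were the sterol share of B cells (202.9 CPM) and of monocytes and macrophages (512.2), Idi1 (33.82 CPM) and Stard4 (39.24) in cDC1, Pmvk (95.43) and Acly (111.6) in cDC2, and Idi1 in mature dendritic cells (214.1). The low Idi1 value in mature dendritic cells is still above every control, and Pmvk in cDC2 is the sample that lies inside the range of the controls.

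The direction of the sterol share differed between cell types. Its log2 ratio of IL-2/CD25 over control was 0.531 in cDC1 and 0.814 in mature dendritic cells, with every IL-2/CD25 sample above every control, and -0.699 in CD8 T cells, -0.219 in B cells and -0.962 in neutrophils, with every IL-2/CD25 sample below every control. The B cell ratio was 0.013 with free RNA subtracted, so its direction was lost. The log2 ratio of the fatty acid share was 0.39 in NK cells and ILC1, and -1.06 in monocytes and macrophages and -0.788 in neutrophils. These differences between cell types were not tested.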

How the results depend on the processing

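Of the values of single members, 1060 kept direction and side of the threshold under the alternatives, 230 lost the call and 6 turned in sign. The 6 were Pmvk (0.10), Idi1 (0.148) and Acly (0.301) in CD8 T cells without cells holding proliferation marker UMIs, Fdft1 in CD8 T cells (0.175) and Insig2 in other T cells (-0.091) under the stricter gate, and Insig1 in tumour-like cells against monocytes and macrophages under the stricter gate (-0.187). The cause was not tested.

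Counts of members called moved by over 1.5 times as follows. A sample left with under 20 cells in a gate was not part of the test. Without cells holding proliferation marker UMIs the counts were 0 in NK cells and ILC1 (4 with all cells), 0 in CD8 T cells (12), 1 in other T cells (5), 0 in B cells (1), 2 in cDC1 (9), 0 in plasmacytoid dendritic cells (1) and 5 in mature dendritic cells (9). The stricter gate gave 0 in NK cells and ILC1, 5 in CD8 T cells, 1 in other T cells, 0 in B cells, 5 in monocytes and macrophages (11) and 6 in neutrophils (13), and no value where under 20 cells a sample were left. After thinning the counts were 0 in NK cells and ILC1, 3 in CD8 T cells, 1 in other T cells, 0 in B cells, 7 in monocytes and macrophages, 8 in neutrophils and 5 in cDC1. Subtracting free RNA gave 0 in B cells and 7 in neutrophils. Dropping the low-count filter gave 3 in B cells, 20 in neutrophils, 3 in cDC2 (6) and 2 in plasmacytoid dendritic cells. DESeq2 gave 1 in CD4 T cells (0 by edgeR) and 0 in B cells. With 1 sample left out the counts ran from 2 to 4 in NK cells and ILC1, 8 to 13 in CD8 T cells, 0 to 1 in CD4 T cells, 2 to 5 in other T cells, 0 to 2 in B cells, 7 to 11 in monocytes and macrophages, 12 to 17 in neutrophils, 7 to 11 in cDC1, 3 to 6 in cDC2, 0 to 1 in plasmacytoid dendritic cells, 6 to 9 in mature dendritic cells and 22 to 25 in tumour-like cells against monocytes and macrophages (25).

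Among shares, the log2 ratio of the sterol share was 0.099 in NK cells and ILC1 with free RNA subtracted (-0.048 without), 0.013 in B cells with free RNA subtracted (-0.219), and -0.358 in CD8 T cells without cells holding proliferation marker UMIs (-0.699). For the fatty acid share it was 0.566 in NK cells and ILC1 (0.39), -0.017 in CD4 T cells (-0.131), 0.323 in other T cells (0.128) and -0.582 in neutrophils (-0.788) with free RNA subtracted, -0.053 in other T cells and -1.185 in monocytes and macrophages (-1.06) under the stricter gate, and 0.069 in CD8 T cells (-0.097) without cells holding proliferation marker UMIs.

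Deviations of samples with the same replicate number correlated at -0.12 to 0.111. With so few samples a group this cannot show whether the samples were paired, and nothing in the labels pairs them. With the replicate block the counts were 2 in NK cells and ILC1, 13 in CD8 T cells, 0 in B cells, 7 in cDC1 and 9 in mature dendritic cells, and without the sample block 23 in tumour-like cells against monocytes and macrophages. Depth limits the gates with few cells, such as control plasmacytoid dendritic cells and hepatocytes, and genes under the low-count filter.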
